A study of Schizosaccharomyces pombe with 4 samples.

Results

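Of the 635 antisense features on chromosomes I, II and III of fission yeast (Schizosaccharomyces pombe), 430 had no protein-coding gene just upstream on their own strand. An antisense feature is an annotated RNA read from the strand opposite to a gene, and the gene it covers is called its sense mRNA below. A feature was taken when no mRNA on its own strand overlapped it or ended at most 500 bases upstream of its annotated 5' end. The remaining 205 antisense features had such an mRNA, which overlapped 97 of them and lay upstream of the other 108. All features of the files, of every type, came to 7015. The choice used positions alone and no read number. The annotated 5' end is that of the deposited annotation, not a measured start of transcription.

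RNA was sequenced from cultures labelled wild type and from cultures labelled with deletion of swd22, of ssu72 or of clr4, with 1 library per genotype. Every culture grew in the rich medium YEA, held in mid-log phase over 3 days at 18 °C. Total RNA was made into libraries that keep the strand of the RNA. Each deposited ratio compares a named library with a reference library whose strain and growth are not named, and that reference served as a second control. Swd22 and Ssu72 belong to the cleavage and polyadenylation factor (CPF), which forms the 3' ends of transcripts, and Ssu72 is also a phosphatase of the tail of RNA polymerase II. Clr4 methylates histone H3 at lysine 9 and so builds heterochromatin. According to its title, the series concerns CPF in heterochromatin and silencing. With 1 library per genotype no test of genotype was possible, and every difference below describes these libraries.

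The labels did not all match the reads. The swi6 mRNA, which encodes a heterochromatin protein, had 200 reads in the wild-type-labelled library and 3601 to 4431 in the other 4. The ura4 mRNA, a common marker gene, had 6 reads there and 1732 to 3961 elsewhere. The ssu72 mRNA had 16 reads in the library labelled ssu72 deletion and 478 to 740 elsewhere, and the swd22 mRNA had 281 in that labelled swd22 deletion and 651 to 787 elsewhere. The clr4 mRNA had 1645 reads in the library labelled clr4 deletion against 1158 to 1445 elsewhere, so it was not lower there, and which bases were deleted is not given in the sources used here. The libraries are therefore called by their labels (the wild-type-labelled library, the swd22-, ssu72- and clr4-labelled libraries), and each direction below is one between labelled libraries. Depth ran from 15282718 reads in the wild-type-labelled library to 24005943 in the ssu72-labelled one, so read numbers are printed as counted and differences on the depth scale of the deposited ratios.

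Antisense RNA can arise where a neighbouring promoter fires in both directions, where transcription starts inside a gene, or where transcription of an upstream gene runs on past its end. In fission yeast the nuclear exosome, RNA interference, Clr4 and the histone variant H2A.Z are known to hold antisense RNA low, and correct 3' end formation limits run-on from a neighbour. Antisense RNA over genes of meiosis is known from growing fission yeast. The features described here have no annotated mRNA from which run-on could reach them within 500 bases.

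By position, 209 of the 430 members (48.6%) were divergent: their 5' end lay at most 500 bases from the start of a gene on the opposite strand other than the sense gene. Among the 205 other antisense features 29 (14.1%) were so placed. The rule itself favours this, since a feature with no gene upstream on its own strand is more likely to have one on the opposite strand there. The median distance between the divergent starts was 151 bases, and 161 of the 209 pairs pointed away from each other while 48 overlapped. A further 176 members (40.9%) are called internal: their 5' end lay inside the sense mRNA and no such start was near. The remaining 45 lay elsewhere. Of the 416 members that could be paired with a sense mRNA, 209 (50.2%) reached over its start and 80 covered it whole, with a median of 72.3% of the sense mRNA covered. Member length had a median of 1423.5 bases and ran from 206 to 4984. A noncoding transcript on the same strand overlapped 26 members, so "without an upstream gene" holds for mRNA and not for every annotated RNA.

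**Figure D1:**
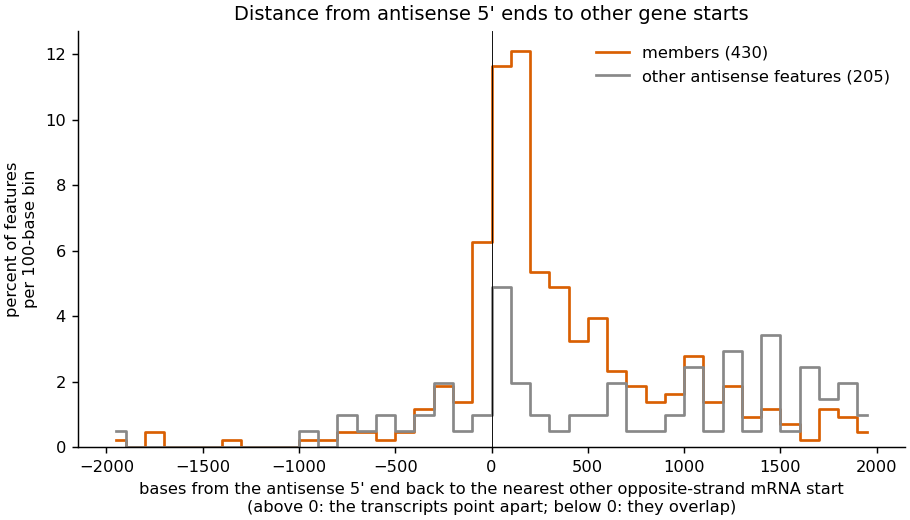
Distance from the annotated 5' end of each antisense feature back to the nearest start of an opposite-strand mRNA other than the sense mRNA (x axis, bases, in bins) against the percent of features (y axis), for the 430 members and the 205 other antisense features. The members pile up just above 0, where the median of the divergent pairs is 151 bases; the other features show a lower peak.

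The bases around the 5' ends are shown for members that stood far above the controls or whose RNA exceeded that of their sense mRNA. The sequences are from the RefSeq genome ASM294v3, each 5' to 3' on the antisense strand, up to 100 bases before and 50 from the annotated 5' end on. Bases in an annotated untranslated region were left out, which shortens some windows. The atd3 stretch ends at position -41 from the annotated 5' end and so does not reach that end. The first set holds members with large differences between libraries, at chrII:357216-357332 (minus strand) for SPBC1271.08c, chrIII:2388107-2388256 (plus) for SPCC1827.07c, chrII:297289-297438 (plus) for omh4, chrI:1686613-1686762 (minus) for bst1, chrIII:1206696-1206755 (minus) for atd3 and chrI:101091-101168 (minus) for fta5. Capitals mark TATAAA, the letters of a TATA box.
SPBC1271.08c antisense: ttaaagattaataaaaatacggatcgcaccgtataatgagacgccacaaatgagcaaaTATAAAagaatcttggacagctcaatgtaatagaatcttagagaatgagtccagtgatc
SPCC1827.07c antisense: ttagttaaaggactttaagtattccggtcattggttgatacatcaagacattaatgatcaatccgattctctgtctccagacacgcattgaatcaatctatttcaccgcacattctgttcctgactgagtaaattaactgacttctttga
omh4 antisense: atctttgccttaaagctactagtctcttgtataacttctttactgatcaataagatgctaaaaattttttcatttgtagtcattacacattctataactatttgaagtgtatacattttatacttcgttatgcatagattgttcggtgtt
bst1 antisense: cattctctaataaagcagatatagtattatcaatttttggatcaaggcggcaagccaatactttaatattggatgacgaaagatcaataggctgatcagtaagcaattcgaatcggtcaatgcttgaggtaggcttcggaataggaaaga
atd3 antisense: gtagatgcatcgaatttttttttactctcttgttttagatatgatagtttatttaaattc
fta5 antisense: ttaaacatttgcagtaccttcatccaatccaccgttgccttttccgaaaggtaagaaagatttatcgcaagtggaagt

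The second set holds members that exceeded their sense mRNA or were the most abundant, at chrII:3829348-3829497 (minus strand) for spo4, chrII:1463676-1463825 (minus) for mug93, chrII:3474178-3474327 (minus) for hop1 and chrI:5011455-5011604 (minus) for SPAC890.05. Capitals mark ACGTCA on either strand (read as TGACGT on the other), GTAAACA or TATAAA.
spo4 antisense: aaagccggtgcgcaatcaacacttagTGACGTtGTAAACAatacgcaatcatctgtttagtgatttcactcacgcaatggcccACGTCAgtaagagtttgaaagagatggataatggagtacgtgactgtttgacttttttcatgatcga
mug93 antisense: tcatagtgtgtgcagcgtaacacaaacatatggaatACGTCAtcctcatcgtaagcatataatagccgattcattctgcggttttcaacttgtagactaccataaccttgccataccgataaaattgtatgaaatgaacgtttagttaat
hop1 antisense: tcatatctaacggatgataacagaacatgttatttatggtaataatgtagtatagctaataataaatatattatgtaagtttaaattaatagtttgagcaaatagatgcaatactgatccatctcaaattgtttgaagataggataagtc
SPAC890.05 antisense: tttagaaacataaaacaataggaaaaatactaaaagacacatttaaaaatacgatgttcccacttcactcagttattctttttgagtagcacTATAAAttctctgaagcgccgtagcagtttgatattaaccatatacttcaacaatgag

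These motifs were looked for because TATAAA marks core promoters, ACGTCA is bound by the stress and mating factor Atf1, GTAAACA by forkhead factors such as the meiotic Mei4, and ACGCGT by the G1/S factor MBF. TATAAA was searched on the antisense strand and the others on both strands, and none of these motifs overlapped another in the windows printed. With positions counted from 0 at the annotated 5' end, the spo4 antisense window held ACGTCA from position -17 on and, on the other strand, from -74 on, next to GTAAACA from -67 on. TATAAA began at -8 in the SPAC890.05 and at -9 in the SPBC1271.08c antisense window. Over windows of the full length, TATAAA was found in 14.9% of members, 13.7% of other antisense features and 16.8% of 5123 mRNAs. ACGTCA was in 3.95%, 5.85% and 3.94%, GTAAACA in 6.98%, 8.78% and 8.39%, and ACGCGT in 1.63%, 0.488% and 1.85%. The members' windows were 65.1% A and T against 66.5% for mRNA, with 67.3% in divergent and 61.8% in internal members. A match is a description, not a binding site, and none of these shares was tested.

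Antisense RNA was a small share of each library. The 430 members took 0.386% of the reads of the wild-type-labelled library, 0.459% of the reference, 0.472% of the clr4-, 0.540% of the swd22- and 0.582% of the ssu72-labelled library. The wild-type-labelled library was thus the lowest and the ssu72-labelled library the highest. At least 10 reads in some library were found for 415 members, and 12 had no read number because their deposited ratios leave at most 4 reads in each library. Of those 415, the depth-scaled value was lowest in the wild-type-labelled library for 158 and in the reference for 127. It was highest in the ssu72-labelled library for 137 and in the reference for 109.

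The most abundant members by RPKM (reads per kb of feature, scaled to the depth of the library), a scale on which levels of different genes can be compared, were those of SPAC890.05, cpc2, mug2, SPBC1271.08c, arg4, tef103, obr1 and mug161. At SPAC890.05, a gene of the PINX1 family of ribosome biogenesis proteins in RefSeq, antisense RNA had an RPKM of 81.0 in the reference, 54.5 in the wild-type-labelled, 112 in the swd22-, 105 in the ssu72- and 84.3 in the clr4-labelled library. Its reads were close in density to those of the sense mRNA, at a median ratio of 0.995. The 5' end lay 179 bases from the start of nup155, which encodes a nucleoporin and was read from the opposite strand. The cpc2 antisense feature, over the gene of the ribosome-bound RACK1 protein, was highest in the reference at 128 and between 58.4 and 85.2 in the named libraries. For the highly expressed cpc2, tef103 (translation elongation factor EF-1 alpha), arg4 (carbamoyl-phosphate synthase of arginine synthesis) and obr1 (a quinone-reducing dehydrogenase), the antisense density was 0.110, 0.0419, 0.0818 and 0.0230 of the sense density. The strand setting of the counting is not given in the sources used here, so how many of these reads came from sense RNA cannot be told apart. The mug161 antisense feature could not be paired with a sense mRNA of that name and had 299 to 517 reads.

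Levels of the antisense features were mostly well below those of the sense mRNAs. Over 407 pairs with at least 10 sense reads in every library, the median ratio of antisense to sense reads per kb was 10.98%, with quartiles at 5.60% and 25.8%. The ratio was above 1 for 38 pairs (9.34%) and under 0.01 for 15, which include members without a read number. In 20 pairs the antisense RNA exceeded the sense RNA in every library. Where the ratio was above 1 the sense mRNA was weak, with a median of 2.68 RPKM in the reference against 38.3 for the other pairs. The split by ratio itself favours this. The antisense features of both sets differed less, with medians of 8.18 and 4.16.

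The 8 pairs with the highest ratios were those of spo4, mug93, SPBC28E12.02, SPBC16E9.20, crp79, mug68, hop1 and mug2. Spo4 is a protein kinase of meiosis, and its antisense feature had 1418 reads in the reference, 961 in the wild-type-labelled, 856 in the swd22-, 1219 in the ssu72- and 1788 in the clr4-labelled library. The spo4 mRNA had 59, 52, 47, 63 and 77 reads in the same order, and the median ratio was 13.03. No library stood apart for this pair. For mug93, a gene with tetratricopeptide repeats, the antisense feature had 214, 338, 886, 1115 and 809 reads in that order, with 20 to 70 sense reads. Both controls lay below the 3 deletion-labelled libraries there. The features of hop1, whose product belongs to the meiotic linear elements, had 490 to 1074 antisense reads and 71 to 178 sense reads. Those of crp79, which encodes a poly(A)-binding protein, had 634 to 1132 and 49 to 115. SPBC28E12.02, an RNA-binding protein gene, had 754 to 1301 antisense and 45 to 91 sense reads. Its level was nearly flat over the libraries, at 13.4 to 14.9 RPKM. The mug68 pair had 209 to 519 antisense and 29 to 60 sense reads, and the mug2 pair 521 to 1541 and 163 to 441. SPBC16E9.20 encodes an uncharacterised protein, and its antisense feature had 70, 58, 169, 188 and 277 reads.

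Gene names starting with mug or meu mark genes found to rise in meiosis. Such sense genes made up 8 of the 38 pairs with a ratio above 1 (21.1%) and 12 of the other 369 (3.25%). The prefix was chosen after the values were seen, and a ratio above 1 itself favours genes with a weak sense mRNA. These shares are therefore a description and do not set such genes apart by their antisense RNA. By position, 23 of the 38 were divergent, 9 internal and 6 elsewhere.

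**Figure D2:**
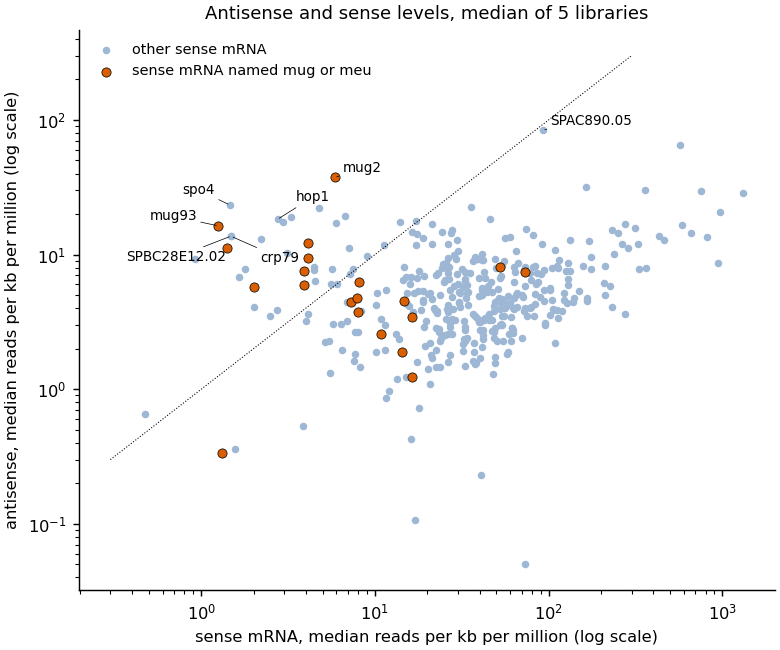
Median level over the 5 libraries of each sense mRNA (x axis, RPKM, log scale) and of its antisense feature (y axis, same scale); each point is 1 of 407 pairs and the dotted line marks equal levels. The 38 points above the line have weak sense mRNAs, which a split at that line itself favours, and 8 of them are genes named mug or meu.

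Against the wild-type-labelled library, members were higher more often than lower in each deletion-labelled library. In the ssu72-labelled library 90 of 414 measured members were at least 2-fold higher (10.6% of all features were) and 5 at least 2-fold lower (3.55% of all features). The swd22-labelled library had 70 of 410 higher (9.91% of all features) and 6 lower (2.91%). In the clr4-labelled library 52 of 413 were higher (9.27% of all features) and 7 lower (2.24%). A member counted as measured when the higher of the compared libraries held at least 10 reads. The median log2 difference of members was 0.41 for ssu72, 0.24 for swd22 and 0.25 for clr4, beside 0.04, 0.07 and 0.02 over all features. For 89 of the 90, 69 of the 70 and 51 of the 52 higher members the 95% exact interval of the difference, which covers counting error only, left out 0.

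Other antisense features stood close to the members. Of these, 49 of 199 were at least 2-fold higher in the ssu72-, 24 of 198 in the swd22- and 29 of 199 in the clr4-labelled library, with medians of 0.45, 0.32 and 0.35. The medians of mRNA were -0.02, 0.03 and -0.03, and those of noncoding RNAs named SPNCRNA were 0.64, 0.59 and 0.72. The members' medians were thus above those of mRNA and below those of antisense features that do have an upstream gene. The shares at least 2-fold higher were 21.7% of members and 24.6% of those other features for ssu72. They were 17.1% and 12.1% for swd22, and 12.6% and 14.6% for clr4, so for swd22 the order was opposite to that of the medians. These differences were not tested. The 9 measured members nearest the 500-base limit, with an upstream mRNA from 522 bases on, had medians of 0.67 (ssu72), 0.23 (swd22) and 0.42 (clr4). The 16 features that the rule left out most narrowly, with one up to 492 bases away, had 0.38, 0.19 and 0.31.

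The 3 comparisons share the wild-type-labelled library as control. Against the unnamed reference, 81 of 415 members were at least 2-fold higher in the ssu72-labelled library (11.9% of all features) and 16 lower (3.79%). The swd22-labelled library had 70 of 412 higher (11.3%) and 20 lower (4.3%), and the clr4-labelled library 53 of 414 higher (11.1%) and 23 lower (3.14%). The medians were 0.29, 0.14 and 0.06 against 0.03, 0.08 and 0.01 over all features. The wild-type-labelled library itself had 26 of 409 members at least 2-fold higher than the reference (7.24% of all features) and 53 lower (6.55%), with a median of -0.18. At least 2-fold above both controls were 44 of 414 members for ssu72 (10.6%, against 5.76% of all features), 33 of 410 for swd22 (8.05% against 5.03%) and 23 of 413 for clr4 (5.57% against 4.93%). The clr4 share was near that of all features. Below both were 2 for ssu72 (0.843% of all features), 3 for swd22 (0.534%) and 3 for clr4 (0.482%).

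**Figure D3:**
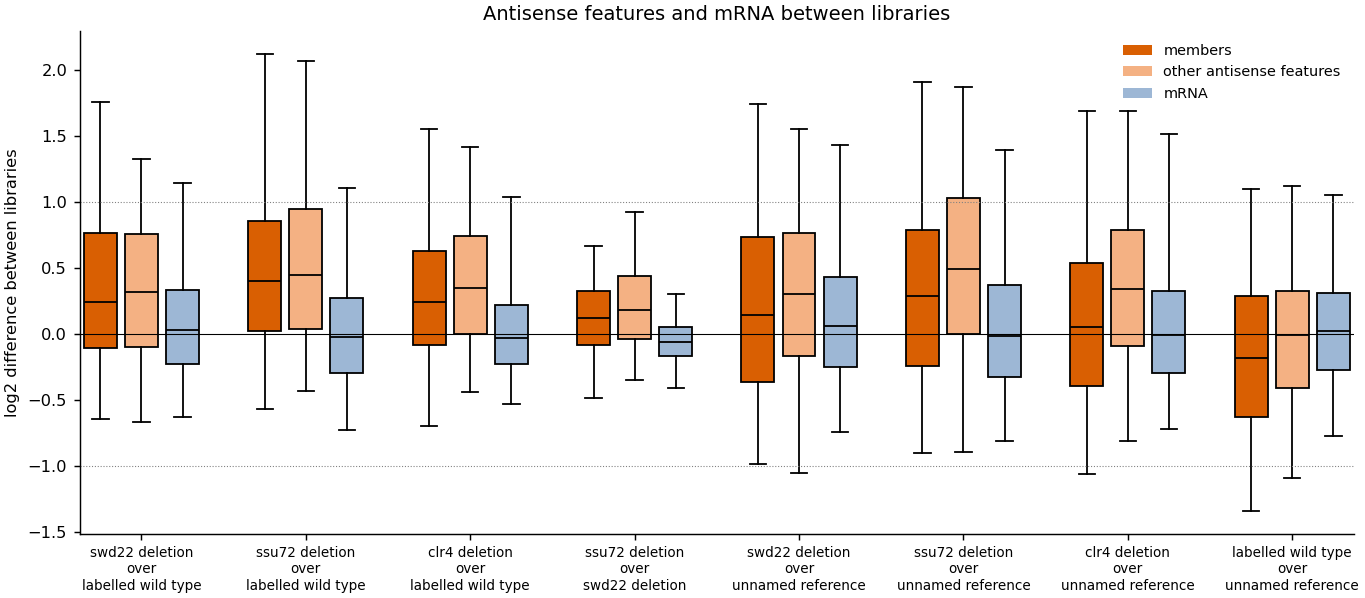
Log2 difference between libraries (y axis) for the members, the other antisense features and mRNA in each of 8 comparisons (x axis, names are labels); boxes span the quartiles with the median, whiskers the 5th to 95th percentile over features, and dotted lines mark 2-fold. The members' median is 0.41 for ssu72 over labelled wild type and -0.18 for labelled wild type over the reference.

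Against the wild-type-labelled library, the order of the position classes differed between the deletion-labelled libraries. In the ssu72-labelled library 44 of 202 measured divergent members (21.8%), 35 of 170 internal ones (20.6%) and 11 of 42 elsewhere (26.2%) were at least 2-fold above the wild-type-labelled library, beside 10.6% of all features. For swd22 the counts were 38 of 202 (18.8%), 25 of 167 (15.0%) and 7 of 41 (17.1%), beside 9.91%. For clr4 they were 18 of 202 (8.91%), 24 of 170 (14.1%) and 10 of 41 (24.4%), beside 9.27%, so the divergent share there lay near that of all features. These differences between classes were not tested. The divergent genes themselves had medians near 0. Over 202 pairs the median difference of the gene on the other side was -0.02 for ssu72, 0.03 for swd22 and -0.01 for clr4. Beside an antisense feature at least 2-fold higher, 5 of 44, 6 of 38 and 3 of 18 of these genes were so too. Of all mRNAs 6.10%, 6.48% and 5.40% were. Pearson's r between the differences of antisense feature and divergent gene was 0.26, 0.32 and 0.31. Against the reference r was 0.42, 0.46 and 0.53 in the same order. Beside an antisense feature at least 2-fold above the reference, 9 of 35, 8 of 29 and 8 of 18 divergent genes were so too. Of all mRNAs 8.39%, 8.89% and 8.13% were at least 2-fold above it. None of this was tested.

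Members with the highest differences in the swd22-labelled library and at least 30 reads were those of bst1, SPBC1271.08c, SPCC1827.07c, SPAC27F1.10, SPCC569.02c and omh4. Bst1 is the GPI inositol deacylase, which trims the lipid anchor of cell surface proteins, and its antisense feature at chrI:1686076-1686662 starts inside the gene. It had 10 reads in the wild-type-labelled library, 19 in the reference, 361 in the swd22-, 128 in the ssu72- and 53 in the clr4-labelled library. The swd22-labelled library was far above the others and the controls were lowest. The log2 difference between the swd22- and the wild-type-labelled library was 4.81 (3.92 to 5.89). The bst1 mRNA, with 1702 to 2599 reads, differed by 0.01. The antisense 5' end lies 3525 bases from the start of swd22, the gene altered in that strain, and its part in the result was not tested. For the ssu72-labelled library the difference was 3.03 (2.10 to 4.12).

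SPCC1827.07c encodes a protein with SPX and EXS domains, which in yeasts serve phosphate sensing and transport. Its antisense feature at chrIII:2388207-2389852 had 75 reads in the wild-type-labelled library, 247 in the reference, 1722 in the swd22-, 2033 in the ssu72- and 442 in the clr4-labelled library. The CPF-labelled libraries were well above the clr4-labelled one. The swd22-labelled library differed from the wild-type-labelled one by 4.16 (3.83 to 4.51), the ssu72-labelled one by 4.11 (3.78 to 4.46) and the clr4-labelled one by 1.98 (1.62 to 2.35). Against the reference they were 3.01, 2.96 and 0.83. The sense mRNA differed by 0.64, 0.48 and 0.49 from the wild-type-labelled library. The antisense feature covers 43.6% of it from the 3' side and does not reach its start. The antisense feature starts 521 bases from the start of SPCC1827.06c, too far to be called divergent. SPCC1827.06c differed by 1.17 (swd22), 1.11 (ssu72) and 0.74 (clr4) from the wild-type-labelled library. Against the reference SPCC1827.06c differed by 0.06, 0.004 and -0.37.

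The antisense feature of omh4, a mannosyltransferase gene, starts 190 bases from the start of sbp1, which encodes a Ran-binding protein. Reads were 27 in the wild-type-labelled library, 114 in the reference, 317 in the swd22-, 385 in the ssu72- and 90 in the clr4-labelled library. On the depth scale the clr4-labelled library lay between the controls. The differences from the wild-type-labelled library were 3.19 (2.62 to 3.82) for swd22 and 3.18 (2.62 to 3.80) for ssu72, and 1.68 and 1.67 from the reference. The omh4 mRNA, covered whole, differed by -0.24 and -0.84, and sbp1 by 0.12 and 0.19. SPAC27F1.10, an uncharacterised gene, showed the same order, with 7 and 47 reads in the controls, 113, 128 and 20 in the swd22-, ssu72- and clr4-labelled libraries, and a difference of 3.65 for swd22, whose interval began at 2.56.

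Over atd3, an aldehyde dehydrogenase gene, the antisense feature had 104 reads in the wild-type-labelled library, 132 in the reference, 1108 in the swd22-, 1978 in the ssu72- and 755 in the clr4-labelled library. Both controls were close together and far below the rest. The differences were 3.05 (2.76 to 3.36), 3.60 (3.31 to 3.90) and 2.28 (1.98 to 2.59). The atd3 mRNA had 180, 311, 316, 520 and 400 reads in the same order and differed by 0.45, 0.88 and 0.57. In both controls the atd3 sense reads outnumbered antisense reads, and in the 3 deletion-labelled libraries the antisense reads outnumbered the sense reads.

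**Figure D4:**
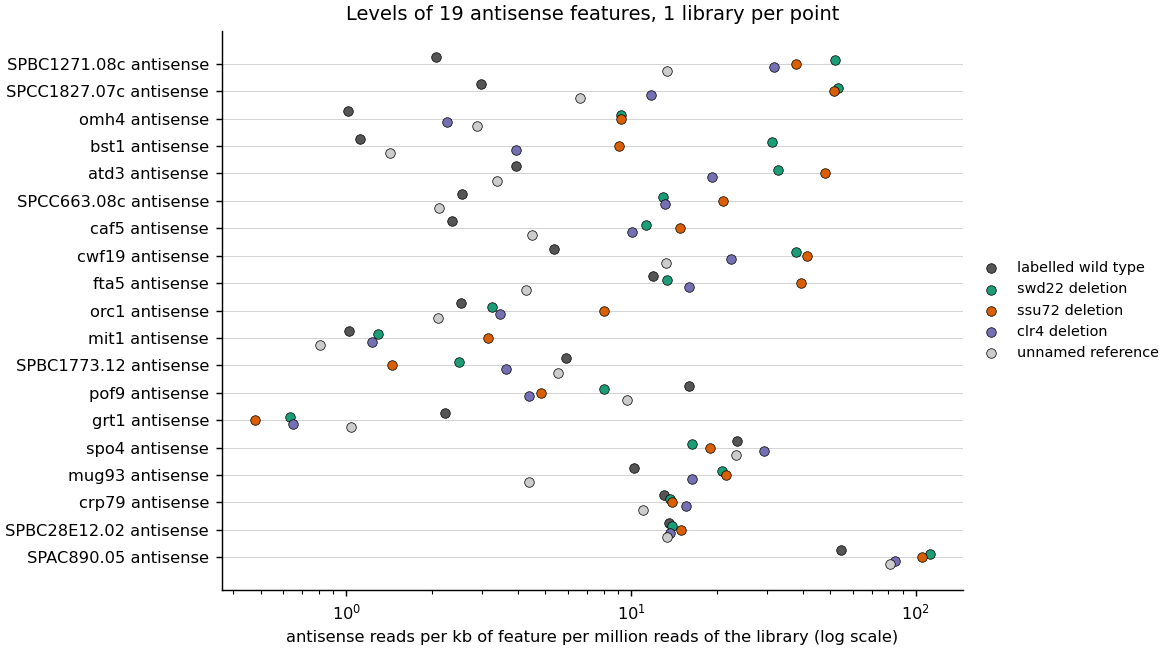
Level of 19 antisense features (y axis) in RPKM (x axis, log scale), 1 point per library with no replicates. For atd3 the wild-type-labelled library and the reference lie together below the 3 deletion-labelled libraries, while spo4, crp79 and SPBC28E12.02 show little spread between libraries.

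Some members were higher together with their sense mRNA. SPBC1271.08c encodes an uncharacterised protein, and its antisense feature at chrII:355997-357265 had 40 reads in the wild-type-labelled library, 383 in the reference, 1291 in the swd22-, 1154 in the ssu72- and 921 in the clr4-labelled library. The mRNA had 309, 1332, 10406, 11048 and 7912. Antisense and sense differed from the wild-type-labelled library by similar amounts. The differences were 4.65 and 4.71 for swd22, 4.20 and 4.51 for ssu72 and 3.95 and 4.10 for clr4. Against the reference the antisense differences were 1.96, 1.51 and 1.26, below those of the sense mRNA at 3.17, 2.97 and 2.56. The neighbouring acetyltransferase gene SPBC1271.07c gave 23, 81, 153, 163 and 91 antisense reads and 153, 1373, 3725, 3544 and 2223 sense reads.

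SPCC663.08c, a short-chain dehydrogenase gene, had 77 antisense reads in the wild-type-labelled library, 95 in the reference, 502 in the swd22-, 1002 in the ssu72- and 595 in the clr4-labelled library, and 474, 407, 10190, 17140 and 12679 sense reads. The spermine transporter gene caf5 had 35, 99, 217, 347 and 224 antisense and 579, 724, 10992, 19427 and 13254 sense reads. For both genes, sense and antisense were lowest in the controls and highest in the ssu72-labelled library. For SPCC663.08c the nearest opposite-strand start of another gene was that of osr1, 1149 bases away. The osr1 mRNA differed by 4.69 (swd22), 5.06 (ssu72) and 4.28 (clr4) from the wild-type-labelled library. For caf5 the nearest such start was that of pob3, 2027 bases away, which differed by -0.46, -0.44 and -0.70. The antisense differences from the wild-type-labelled library were 2.34, 3.05 and 2.37 for SPCC663.08c and 2.27, 2.66 and 2.10 for caf5, below those of the sense mRNAs at 4.06, 4.52 and 4.16 and at 3.89, 4.42 and 3.94. Antisense density was 0.0331 and 0.0478 of sense density, and sense reads counted on the antisense strand cannot be told apart from antisense RNA at such ratios. SPCC191.10 had 27, 11, 147, 152 and 265 antisense and 6, 4, 103, 79 and 118 sense reads. The antisense count was highest in the clr4-labelled library, at a difference of 2.72 (2.14 to 3.34). This antisense feature starts 517 bases from the start of inv1, too far to be called divergent. The inv1 mRNA differed by 3.58 (swd22), 3.31 (ssu72) and 3.72 (clr4) from the wild-type-labelled library. Against the reference inv1 differed by 5.41, 5.14 and 5.55. What such neighbours contribute was not tested. Of lower counts, the uncharacterised SPAC9E9.17c had 2, 8, 28, 43 and 26 antisense reads and 2 to 24 sense reads. SPCC569.02c had 7, 38, 85, 111 and 36 antisense reads. For mug135, a gene upregulated in meiosis, the antisense feature of that name had 10, 60, 22, 46 and 63 reads. Its difference of 2.08 for clr4 was 0.06 against the reference. Another member paired with mug135, SPCC330.04c, had 16, 29, 8, 17 and 26 reads, with 0.12 for clr4 and -0.17 against the reference. In the swd22-labelled library that member was below both controls, at -1.36 and -1.65.

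Of paired members at least 2-fold higher than in the wild-type-labelled library, the sense mRNA was within 2-fold for 65 of 87 in the ssu72-, 52 of 68 in the swd22- and 41 of 52 in the clr4-labelled library. It was at least 2-fold higher for 17 (19.5%), 15 (22.1%) and 11 (21.2%), and lower for 5, 1 and 0. Over all measured pairs the sense mRNA was at least 2-fold higher in 38 of 400 (9.5%), 41 of 396 (10.4%) and 31 of 399 (7.77%), so it was higher more often beside a higher antisense feature, which was not tested. Most higher antisense features nevertheless had a sense mRNA within 2-fold. The median of antisense minus sense log2 difference was 0.35 (ssu72), 0.17 (swd22) and 0.23 (clr4), and 0.26, 0.03 and 0.00 against the reference. Pearson's r between antisense and sense differences across pairs was 0.28 over 400, 0.32 over 396 and 0.41 over 399 pairs. These are correlations across genes that share the same libraries, described without a test.

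**Figure D5:**
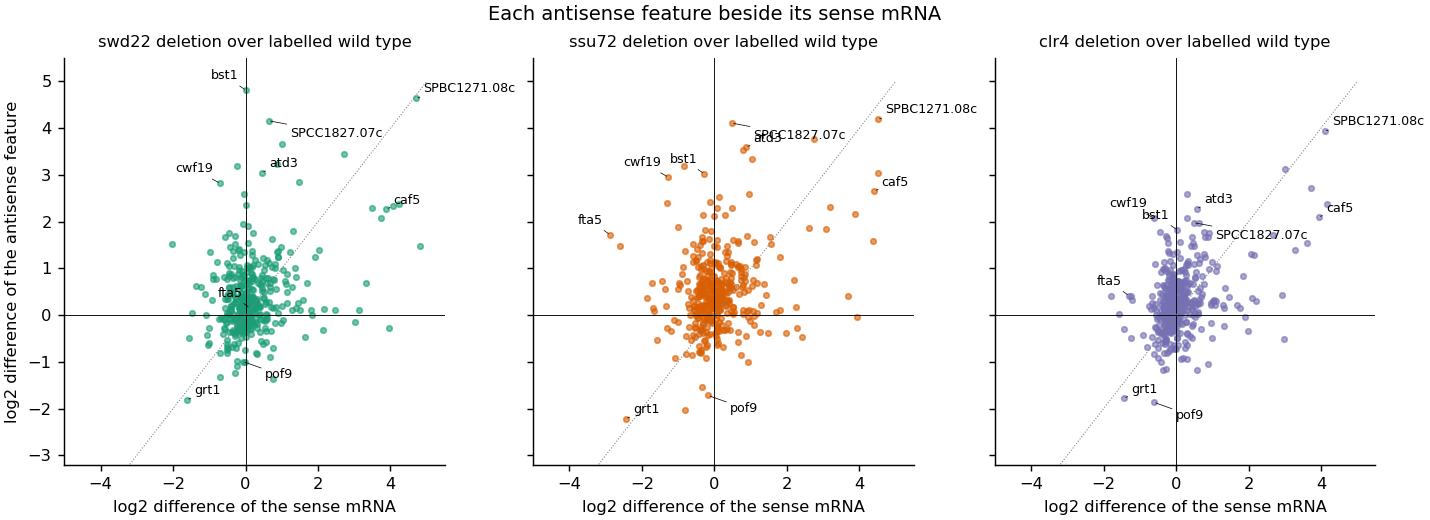
Log2 difference of each antisense feature (y axis) against that of its sense mRNA (x axis) in the swd22-, ssu72- and clr4-labelled library over the library labelled wild type; 1 point per pair, dotted line at equal differences. Most high antisense points lie near 0 on the x axis, SPBC1271.08c and caf5 lie far to the right, and the fta5 antisense feature with its sense mRNA pfl8 lies to the left in the ssu72-labelled library.

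Antisense and sense RNA differed in opposite directions at pfl8, which encodes a flocculin, a cell surface glycoprotein of cell adhesion. Its antisense feature carries the synonym fta5. The feature at chrI:99046-101140 covers 81.4% of pfl8 and reaches over its start. It had 383 reads in the wild-type-labelled library, 203 in the reference, 549 in the swd22-, 1984 in the ssu72- and 764 in the clr4-labelled library. The pfl8 mRNA had 779, 671, 1082, 166 and 473 reads. The ssu72-labelled library was highest for the antisense and lowest for the sense RNA. The antisense difference from the wild-type-labelled library was 1.72 (1.56 to 1.88) and that of the mRNA -2.88 (-3.13 to -2.64). Against the swd22-labelled library the values were 1.56 (1.43 to 1.70) and -2.99 (-3.24 to -2.76).

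The other opposite pairs were named after their values were seen. The antisense feature of cwf19, a splicing factor gene, starts 66 bases from the start of rad52 and had 177 reads in the wild-type-labelled library, 653 in the reference, 1608 in the swd22-, 2154 in the ssu72- and 1112 in the clr4-labelled library. The cwf19 mRNA had 1828, 1927, 1442, 1192 and 1806. Its difference in the ssu72-labelled library was -1.27 (-1.38 to -1.16) beside 2.95 (2.73 to 3.18) for the antisense feature, and against the reference -0.77 and 1.64. Guf1, a GTPase gene, had 19 and 50 antisense reads in the controls and 158 in the ssu72-labelled library, and 635, 724 and 402 sense reads. For rec12, which encodes the enzyme that breaks DNA for meiotic recombination, antisense reads were 43, 82 and 251 and sense reads 91, 99 and 71. The uncharacterised gene SPBC887.16 had 20 antisense reads in the wild-type-labelled library and 85 in the reference, with 35 and 1 sense reads, so its direction rests on which control is used.

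Few members were lower in the deletion-labelled libraries. The antisense feature of pof9, an F-box protein gene, had 507 reads in the wild-type-labelled library, 457 in the reference, 327 in the swd22-, 242 in the ssu72- and 208 in the clr4-labelled library. Both controls were highest. Its differences were -0.99 (-1.20 to -0.79), -1.72 (-1.95 to -1.50) and -1.87 (-2.11 to -1.63), and -0.27, -0.999 and -1.15 from the reference. The uncharacterised divergent gene SPBC3H7.05c, 264 bases away, differed by -0.95, -1.53 and -1.77 from the wild-type-labelled library. From the reference it differed by 0.57, -0.004 and -0.25, so its direction rests on which control is used. The pof9 mRNA differed by -0.06, -0.17 and -0.61 from the wild-type-labelled library and by 0.94, 0.84 and 0.40 from the reference.

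Antisense RNA of SPBC1773.12, a transcription factor gene, had 233 reads in the wild-type-labelled library, 324 in the reference, 126 in the swd22-, 90 in the ssu72- and 214 in the clr4-labelled library. The CPF-labelled libraries were lowest, at -1.25 (-1.57 to -0.93) and -2.02 (-2.39 to -1.67). For grt1, a transcription factor gene near a chromosome end, reads were 71, 49, 26, 24 and 31, and 76, 113, 32, 22 and 42 on the sense strand, so both strands were lower. Its antisense difference was -2.22 (-2.95 to -1.53) in the ssu72-labelled library. The pvg3 antisense feature, over a galactosyltransferase gene, had 51, 43, 40, 62 and 34 reads, with -1.16 (-1.84 to -0.51) for clr4 and -0.35 against the reference.

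The ssu72- and the swd22-labelled library differed little in the members. Of 414 measured members 7 were at least 2-fold higher in the ssu72-labelled library (1.29% of all features were) and 3 lower (1.31%), with a median of 0.12 against -0.04 over all features and -0.06 over mRNA. The 4 highest were those of fta5, orc1, mit1 and SPAC637.04. Orc1 is a subunit of the origin recognition complex, and its antisense feature had 78 reads in the wild-type-labelled library, 96 in the reference, 129 in the swd22-, 390 in the ssu72- and 160 in the clr4-labelled library. Mit1 is the helicase of the heterochromatin complex SHREC, with 24, 28, 39, 116 and 43 antisense reads. SPAC637.04 covers ypp1, a cargo transport gene, with 27, 29, 43, 116 and 57. In each the ssu72-labelled library stood above all the others. The differences between ssu72 and swd22 were 1.31 (1.01 to 1.60), 1.28 (0.75 to 1.84) and 1.14 (0.62 to 1.68), while the sense mRNAs differed by -0.34, -0.21 and -0.02. All 3 features start inside their sense gene.

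The 4 lowest in the ssu72- against the swd22-labelled library were those of bst1 at -1.79 (-2.09 to -1.49), SPBP4G3.03, SPBC30B4.06c and map1. SPBP4G3.03 had 32 reads in the swd22- and 18 in the ssu72-labelled library, a difference of -1.12 (-2.04 to -0.24), beside 454 and 119 reads of its sense mRNA fub2, of the PI31 family of proteasome regulators. SPBC30B4.06c, a mitochondrial tRNA modification gene, had 69 and 40, at -1.08 (-1.68 to -0.49). Map1 is a transcription factor of mating, and its antisense feature had 39 and 27 reads, at -0.82 (-1.59 to -0.08).

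Of genes known from fission yeast genetics to limit antisense or cryptic RNA, 36 of 37 listed were found. They encode the exosome and its helpers, RNA interference, Clr4 complex members, H2A.Z and its loader, Set2 with a histone deacetylase complex, and histone chaperones. None was at least 2-fold higher or lower than in the wild-type-labelled library in any deletion-labelled library, and their medians were -0.13 (ssu72), -0.05 (swd22) and -0.12 (clr4). The largest differences were 0.65 for dcr1, the Dicer gene, and -0.70 for pob3, a FACT subunit gene, both in the clr4-labelled library. Dcr1 was also higher in the ssu72- (0.59) and swd22-labelled (0.55) libraries. Against the reference dcr1 was at -0.16 (ssu72), -0.20 (swd22) and -0.10 (clr4), so its direction rests on which control is used. Pob3 was at -0.39 for clr4 against the reference. Against the reference 1 gene passed 2-fold, hrp1, a chromatin remodeller gene with 5633 reads in the ssu72-labelled library and 10687 in the reference (-1.01).

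Finally, 1 member was absent from every named library. The antisense feature of SPBC23G7.13c at chrII:2123317-2125438 had 636 reads in the reference and 0 in the 4 named libraries, each of which allows up to 3 reads. Its sense mRNA had 53 and 0. SPBC23G7.13c encodes a urea transporter. Within chrII:2110485-2125438, near the mating-type region, 8 features were at 0 in the named libraries. The proteasome gene rpt6, inside the same stretch, had 316 to 785 reads against 4573. The cause was not tested. This member separates the reference from the named libraries, not one genotype from another.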

How the data were processed

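Strand-specific libraries of total RNA were sequenced, 1 per genotype, so no replicate error could be estimated. Reads were handled with Trimmomatic and STAR, per the submitters' processing notes. No build, counting program or strand setting is named by the labels or headers (not given in the sources used here). For every feature the deposited files hold, per the file headers, a log2 ratio of the named library to a shared reference library and a p-value. The deposited p-values were used for nothing but the recovery of reads.

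A log2 ratio and its p-value together fix the read numbers under the random-sampling model that such values follow. Reads were recovered this way for 6536 features and from the ratio alone for 113. For 362 features no number could be had, and 4 were unsolved, none of them a member. In every named library all of 518 to 633 low-count features came out within 0.05 of a whole number. The recovery was tested on data simulated under the same model. That test covers the solving step, not whether the deposited values follow the model.

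Differences are log2 ratios on the depth scale of the deposited ratios, with 0 reads taken as 0.5. A feature was measured with at least 10 reads in the higher library, and a 2-fold difference was counted. The 95% intervals are exact (Clopper-Pearson) and, like the floor of 3 reads for a count of 0, cover counting error only, because no molecular identifiers tell copies of a molecule apart. Totals ran from 15282718 to 24005943 reads. Levels are RPKM, reads per kb of feature scaled to the total.

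The members and lists were chosen with earlier results of these data known. Members named had at least 30 reads in the higher library and an interval leaving out 0. They were the 6 highest and 3 lowest in each deletion-labelled library over the wild-type-labelled one with the same sign over the reference, the 4 highest and 4 lowest of ssu72 over swd22, the 8 most abundant, and the 8 highest in antisense over sense. Of these, 1 member is not reported here. Sense mRNAs were matched by name for 364 members and through RefSeq for 52, and 14 stayed unpaired. RefSeq ASM294v3 gave sequences and gene descriptions: the last annotated base of chromosomes I and III equals its length, and 99.3% of 3823 mRNAs found by name share an end with it. Alternatives changed the minimum of reads, the value for 0 reads, the scaling, the upstream distance, the feature types counted as upstream and the control. Python 3.11.15, numpy 2.4.6, scipy 1.17.1, pandas 2.3.3 and matplotlib 3.10.9 were used.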

Additional observations from a re-analysis of the deposited data

How the results depend on the processing

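Of 112 alternative values of the counts and medians, 102 stayed within the spread allowed and 10 moved. A count of members has no sign, so a change of direction could show only in the medians. Every alternative median stayed positive. The spread allowed does not come from replicate libraries, since there were none. The unnamed reference as control gave 9 of those that moved, and only 3 values stayed under it. With the unnamed reference as control, members at least 2-fold lower numbered 20 (swd22), 16 (ssu72) and 23 (clr4), in place of 6, 5 and 7. The members' medians were then 0.144, 0.294 and 0.0569, and those of antisense minus sense 0.0309, 0.263 and 0.0032. With the mRNA median set to 0, the median of ssu72 over swd22 was 0.18. A minimum of 5 or 20 reads, 0 reads taken as 1, another upstream distance (473 or 387 members) and features of any type counted as upstream (387 members) moved none of these values past that spread. For single named members, 19 differences moved out of their interval with the reference as control and 8 stayed inside it. No paired analysis was possible because each genotype has 1 library, and no library could be left out for the same reason. Members with few reads have wide intervals, and no difference can be told from variation between cultures.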

Other observations

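Some members were highest in the library labelled clr4 deletion, and the following were chosen after their values were seen. The antisense feature of dmc1, which encodes the recombinase of meiosis, starts 333 bases from the start of rad24. It had 434 reads in the wild-type-labelled library, 339 in the reference, 732 in the swd22-, 1046 in the ssu72- and 1496 in the clr4-labelled library. The clr4-labelled library stood highest and the controls lowest. Its difference from the wild-type-labelled library was 1.21 (1.05 to 1.36), and from the reference 2.13. The dmc1 mRNA had 82, 59, 94, 171 and 195 reads in the same order and differed by 0.67 from the wild-type-labelled library. Its reads too were highest in the clr4-labelled library and lowest in the reference.

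The antisense feature of aur1, the inositol phosphorylceramide synthase gene, had 46 reads in the wild-type-labelled library, 49 in the reference, 47 in the swd22-, 106 in the ssu72- and 192 in the clr4-labelled library, a difference of 1.48 (1.01 to 1.98). That of swc3, a subunit gene of the Swr1 complex that loads H2A.Z, had 8, 4, 11, 16 and 41 reads, with a difference of 1.78 (0.67 to 3.08). The clr4 mRNA was not lower in that library, so these values belong to the library labelled clr4 deletion and show nothing firmer of the genotype.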
